A study of Homo sapiens with 5 samples.

Results

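The effect of camptothecin (CPT) on the genomic binding of ATF3 was described by comparing the ATF3 ChIP-seq peak list of CPT-treated ATF3-WT cells (ATF3-CPT, 70702 peaks) with that of ATF3-WT cells given the solvent DMSO (ATF3-Ctrl, 33966 peaks). These 104668 peaks were all those listed for the 2 libraries, out of 123989 peaks in the 5 libraries of the series. All libraries came from HCT116, a human colon cancer line. The ATF3-WT cells were the unedited line, and the ATF3-KO line was derived from it by gene targeting of an ATF3 exon with an adeno-associated virus. CPT was given at 1.5 μM for 4 h, and cells were fixed with 1 mM of the protein crosslinker DSG for 45 min and then with 1% formaldehyde for 10 min before chromatin was sheared to about 500 bp. Lists from other libraries served only for reference, namely 2231 peaks obtained with the ATF3 antibody in DMSO-treated ATF3-KO cells and 9211 p53 peaks of CPT-treated p53-WT cells. No library of CPT-treated ATF3-KO cells was analysed here, so antibody background after CPT has no measure of its own. Each condition was 1 library, so the spread between cultures is unknown, no test between conditions was possible, and all intervals below cover counting or the sites of these libraries only.

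ATF3 is a basic leucine zipper protein of the ATF/CREB family whose gene is induced by many stresses, and it binds DNA as a homodimer or as a heterodimer with JUN proteins and other leucine zipper factors. The partner helps to set the preferred sequence, which can be the AP-1 core bound by JUN and FOS proteins, the palindromic ATF/CRE core, or the composite CEBP-ATF core, which joins a C/EBP recognition element to an ATF one and lies at many genes of the integrated stress response, where ATF4 acts with C/EBP proteins. CPT traps topoisomerase I on DNA and thereby causes replication-dependent breaks and blocked transcription. In HCT116 cells, which carry wild-type p53, it is a standard way to activate the DNA damage response.

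The sequences that carried the contrast are shown first, from the hg19 assembly (GRCh37), plus strand, 5′ to 3′, in lower case with the cores in capitals. The AP-1 core is TGACTCA or TGAGTCA, the ATF/CRE core TGACGTCA, and the CEBP-ATF core TGATGCAA or, on the other strand, TTGCATCA. Relative to depth, the first 4 peaks had more tags after CPT and held an AP-1 core, the next 4 had fewer and held a CEBP-ATF core, STK40 held both, and the ATF3 promoter held a CEBP-ATF core at a site with about equal tags. For ATF3 and FOSL2 a stretch around the core is given where the peak touched an untranslated region.
ATF3 upstream site, chr1:212732358-212732484: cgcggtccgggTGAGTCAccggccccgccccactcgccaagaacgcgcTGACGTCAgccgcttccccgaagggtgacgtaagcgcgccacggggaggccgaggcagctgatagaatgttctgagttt
DDIT4 distal site, chr10:74052039-74052165: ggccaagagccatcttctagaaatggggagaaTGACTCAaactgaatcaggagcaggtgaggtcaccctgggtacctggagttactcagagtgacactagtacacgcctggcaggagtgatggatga
FOSL2 start site, chr2:28615718-28615747: tgccattgtagTGACTCAtctcgggcagag
ANKRD2 upstream site, chr10:99302046-99302172: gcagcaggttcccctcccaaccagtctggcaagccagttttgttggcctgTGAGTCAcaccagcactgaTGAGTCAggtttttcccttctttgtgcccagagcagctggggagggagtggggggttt
DDIT4 promoter, chr10:74032635-74032761: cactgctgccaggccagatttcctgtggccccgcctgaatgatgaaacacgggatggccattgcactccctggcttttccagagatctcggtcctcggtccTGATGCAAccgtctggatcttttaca
FOSL2 upstream site, chr2:28613122-28613248: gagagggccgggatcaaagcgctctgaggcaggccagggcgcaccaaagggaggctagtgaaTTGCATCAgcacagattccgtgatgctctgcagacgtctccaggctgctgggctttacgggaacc
CARD9 intron, chr9:139267105-139267231: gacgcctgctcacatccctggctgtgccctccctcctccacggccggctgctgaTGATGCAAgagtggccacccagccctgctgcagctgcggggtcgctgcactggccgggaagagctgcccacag
ELMO1 intron, chr7:37092431-37092557: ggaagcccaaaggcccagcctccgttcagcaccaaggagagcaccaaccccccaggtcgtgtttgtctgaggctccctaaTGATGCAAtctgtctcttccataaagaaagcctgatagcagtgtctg
STK40 upstream site, chr1:36852172-36852298: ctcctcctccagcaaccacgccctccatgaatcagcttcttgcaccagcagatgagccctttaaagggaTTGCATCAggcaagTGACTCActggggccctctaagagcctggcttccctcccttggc
ATF3 promoter, chr1:212782071-212782100: tataaaaggggTGATGCAAcgctctccaag

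The ATF3-CPT list held more peaks, and a larger share of its reads lay in them. The depth was 12947516 tags (mapped reads) for ATF3-Ctrl and 15457013 for ATF3-CPT, and 5.60% and 12.8% of the tags were in peaks. The lowest tag count of a listed peak was 7 in both libraries, and the median was 13 in ATF3-Ctrl and 17 in ATF3-CPT. Tags were therefore compared per 10000000 tags of the library (written per 10M), where 1 tag is worth 0.772 in ATF3-Ctrl and 0.647 in ATF3-CPT. A count sums over all cells of a culture, so binding in more cells and longer binding in each cell cannot be told apart.

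Of the 33966 ATF3-Ctrl peaks, 27104 shared at least 1 bp with an ATF3-CPT peak (79.8%, 95% Wilson interval 79.4 to 80.2%) and 6862 did not. Of the 70702 ATF3-CPT peaks, 43597 (61.7%, 61.3 to 62.0%) had no ATF3-Ctrl partner and are called CPT-only. Shared peaks were the strong ones in both lists: their median was 11.6 tags per 10M in ATF3-Ctrl and 22.6 in ATF3-CPT, against 7.72 for ATF3-Ctrl peaks without a partner and 8.41 for CPT-only peaks. The share of ATF3-Ctrl peaks found again rose from 60.8% at 7 to 9 tags to 96.8% at 160 tags or more. In the other direction the change was steeper, from 7.90% of ATF3-CPT peaks with 7 to 9 tags to 99.0% of those with 160 or more, so that the strongest sites of CPT-treated cells were nearly all sites listed before the treatment. Overlap with the ATF3-KO list was rare among CPT-only peaks (176 of 43597, 0.404%) and more frequent among shared ones (1654 of 27104, 6.10%).

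At most shared sites ATF3 had more tags after CPT relative to depth, but the strongest ATF3-Ctrl sites had fewer. The median log2 ratio of tags per 10M, ATF3-CPT over ATF3-Ctrl, was 0.84 (95% order-statistic interval over sites 0.83 to 0.86), which is 1.80-fold (1.78 to 1.81). In all, 21788 of the 27104 sites (80.4%) had a ratio above 1, 11812 were at least 2-fold higher (43.6%), and 642 were at least 2-fold lower (2.37%). A shared site needs at least 7 ATF3-CPT tags, so the sites of fewest ATF3-Ctrl tags could not be called lower. On chromosomes 1 to 22, X and Y, none of the 3668 sites with 7 to 9 ATF3-Ctrl tags or the 6507 with 10 to 12 was. Among the 9030 sites with at least 20 ATF3-Ctrl tags, 3512 were at least 2-fold higher (38.9%) and 514 lower (5.69%). By ATF3-Ctrl tags, on chromosomes 1 to 22, X and Y, the median log2 ratio lay between 0.87 and 0.97 in the bins from 7 to 39 tags, was 0.58 at 40 to 79 tags (2051 sites) and −0.03 at 80 to 159 (592 sites), and was −0.51 (−0.65 to −0.37) at 160 or more. Of the 196 sites in that last bin, 40 had a ratio above 1 (20.4%), and the 127 of them outside the ATF3-KO list had a median of −0.31. These bins are set by the ATF3-Ctrl tags, which are also the denominator of the ratio. The centre of the overlapping peaks differed by a median of 16 bp, and 67.7% of the pairs lay within 25 bp. Medians by chromosome lay between 0.74 on chromosome X and 0.99 on chromosome 22.

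The ratio was higher away from promoters. Sites with their centre within 2 kb of a protein-coding transcription start site (TSS) had a median log2 ratio of 0.55 (0.53 to 0.57; 8437 sites) and distal sites of 1.01 (0.99 to 1.02; 18469 sites). It was 0.43 within 250 bp of a TSS, rose through 0.62, 0.80 and 0.91 in the next bins up to 2 kb, and stayed between 1.03 and 1.07 from there to 100 kb. Beyond 100 kb it was 0.82. The plot by distance shows that leaving out sites that overlap an ATF3-KO peak raised the value at 0 to 250 bp to 0.50 and left the order of the bins up to 2 kb as it was.

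**Figure D1:**
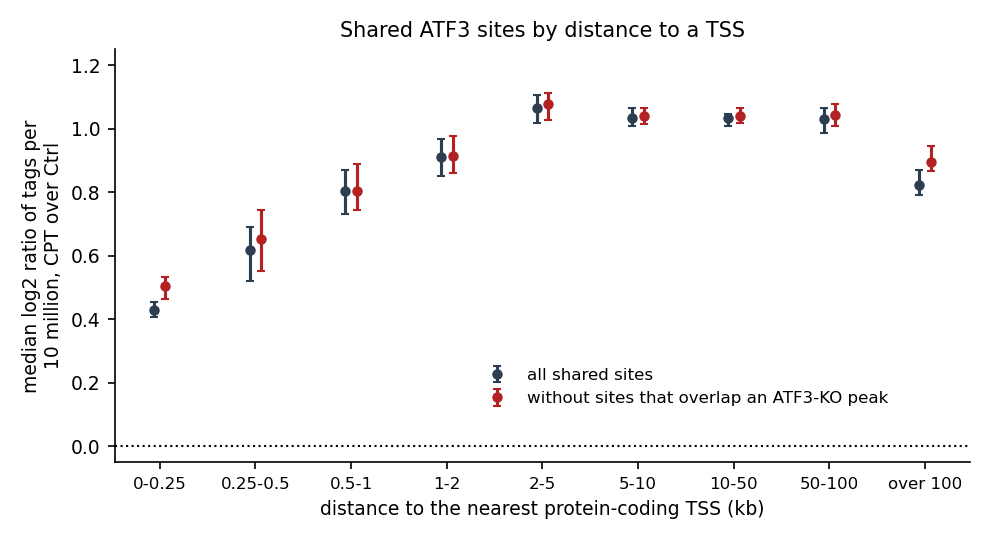
Median log2 ratio of tags per 10M (ATF3-CPT over ATF3-Ctrl, y axis) at shared ATF3 sites in 9 bins of distance to the nearest protein-coding TSS in kb (x axis), with 95% order-statistic intervals over sites. Dark points are all shared sites and red points those without an ATF3-KO overlap. The medians rise from 0.43 next to the TSS to 1.07 at 2 to 5 kb and are 0.82 beyond 100 kb.

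Grouped by the core sequence in the peak, the medians lay on both sides of 0, which no bin of distance did. On chromosomes 1 to 22, X and Y, 10093 of 33681 ATF3-Ctrl peaks held an AP-1 core and no other, 4160 only a CEBP-ATF core (12.4%), 609 only an ATF/CRE core (1.81%), 321 both an AP-1 and a CEBP-ATF core (0.953%), and 18457 none of the 3 (54.8%). Windows of the same length 1 kb to the side of shared peaks held an AP-1 core in 2.02%, a CEBP-ATF core in 0.312% and an ATF/CRE core in 0.0632%. Shared sites with only an AP-1 core had a median log2 ratio of 1.29 (1.28 to 1.31; 9848 sites). Of these, 6859 were at least 2-fold higher (69.6%) and 3 at least 2-fold lower. Shared sites with only an ATF/CRE core had a median of 0.93 (0.87 to 1.02; 593 sites).

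Sites with only a CEBP-ATF core went the other way. Their median log2 ratio was −0.40 (−0.43 to −0.38; 1736 sites), which is 0.758-fold, and 422 of the 1736 had a ratio above 1 (24.3%). Of these sites, 36 were at least 2-fold higher (2.07%) and 238 at least 2-fold lower (13.7%), against 43.6% and 2.37% over all shared sites. Sites with both an AP-1 and a CEBP-ATF core lay between, at 0.18 (0.11 to 0.26; 280 sites), and sites without a core had 0.57 (0.55 to 0.59; 14408 sites). For AP-1 and CEBP-ATF sites the place made little difference. AP-1 sites had a median of 1.29 both in promoters and at distal positions, and CEBP-ATF sites had −0.42 and −0.39. Sites without a core did differ, with 0.38 in promoters and 0.74 at distal positions. So did sites with only an ATF/CRE core, with 0.89 (0.80 to 0.95; 450 sites) and 1.20 (1.02 to 1.37; 143 sites). By the number of AP-1 cores in a peak the median was 0.48 with none, 1.24 with 1 and 1.48 with 2 or more.

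**Figure D2:**
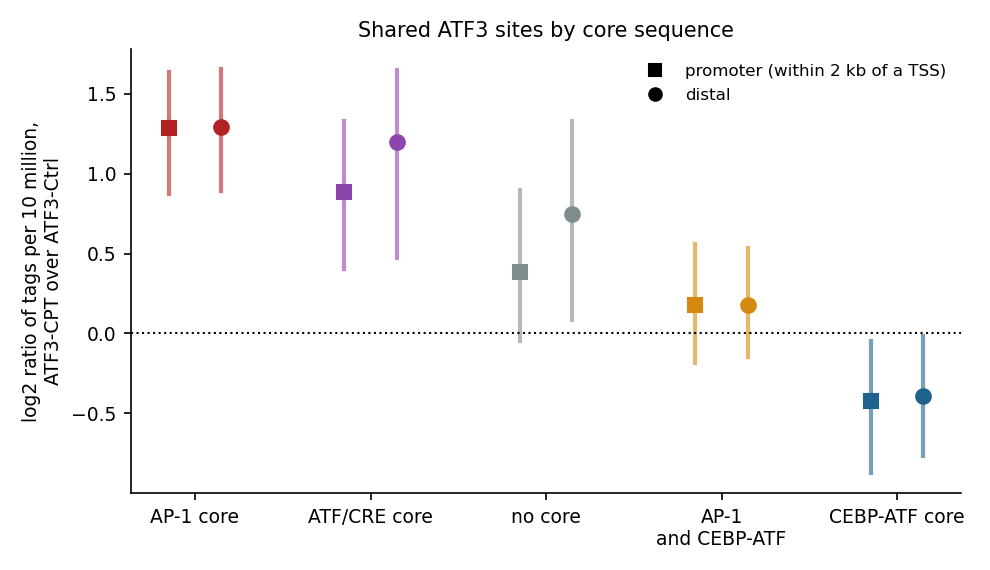
Log2 ratio of tags per 10M (ATF3-CPT over ATF3-Ctrl, y axis) at shared ATF3 sites grouped by the core in the ATF3-Ctrl peak (x axis), with squares for promoter and circles for distal sites. Symbols are medians over sites and bars run from the lower to the upper quartile. AP-1 sites lie at 1.29 in both places and CEBP-ATF sites at −0.42 and −0.39, below the dotted line of equal tags.

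Sites with a CEBP-ATF core were also the ones least often listed after CPT. Of the 4160 peaks with only this core, 1736 had an ATF3-CPT partner (41.7%, 40.2 to 43.2%), against 97.6% (97.3 to 97.9%) of peaks with only an AP-1 core, 97.4% (95.8 to 98.4%) with only an ATF/CRE core and 78.1% (77.5 to 78.7%) without a core. Peaks with a CEBP-ATF core were weaker (median 12 tags, against 15 for AP-1), so the classes were also set side by side at the same tag count. At 13 to 17 ATF3-Ctrl tags, 98.7% of AP-1 peaks, 83.5% of peaks without a core and 43.1% of CEBP-ATF peaks had a partner. At 40 to 79 tags the shares were 98.9%, 96.7% and 94.7%. At that height, where nearly all peaks of each class were found again, the median log2 ratios were 1.09 for AP-1, 0.24 without a core and −0.45 for CEBP-ATF. At 80 to 159 tags they were 0.49, −0.19 and −0.38. At 160 or more, peaks without a core had −0.85 (107 shared sites) and lay below the CEBP-ATF peaks at −0.39 (51 sites), so the order of these 2 classes turned among the strongest sites. Of the 196 shared sites of all classes in that bin, 69 overlapped an ATF3-KO peak, with a median of −0.77, against −0.31 for the other 127. Such overlaps were found for 8.46% of ATF3-Ctrl peaks without a core and 0.168% of those with only a CEBP-ATF core. The 2 classes were not compared at that height without these overlaps. A peak missing from a list is not a site without tags, since no values under the caller's threshold are given, and a low site counts as shared only if its ATF3-CPT tags passed it.

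**Figure D3:**
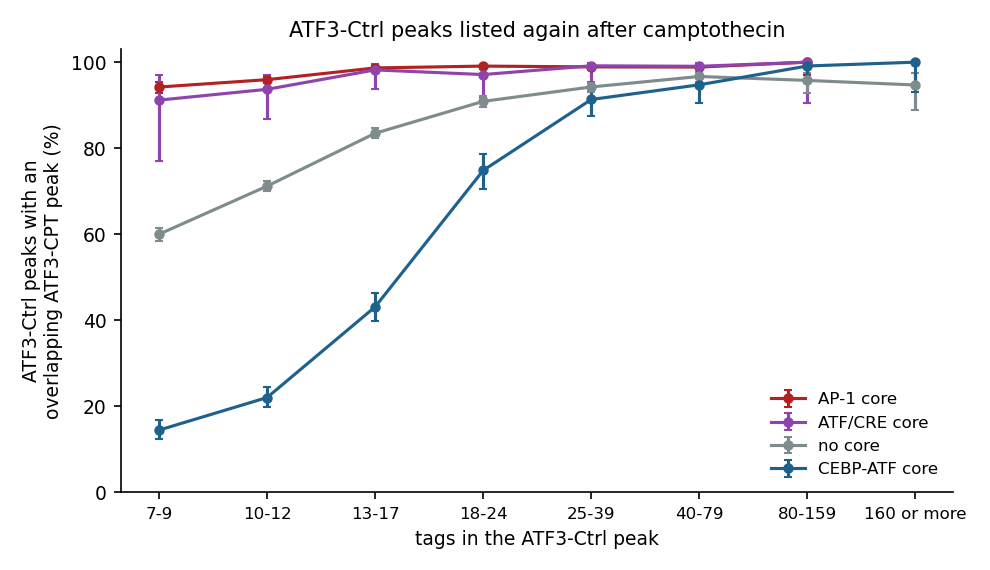
Share of ATF3-Ctrl peaks that overlap an ATF3-CPT peak (y axis, percent) by the tags in the ATF3-Ctrl peak (x axis) for 4 classes of core, with 95% Wilson intervals and bins of at least 20 peaks. At 7 to 9 tags the share is 94.2% for AP-1 and 14.5% for CEBP-ATF peaks, and at 80 to 159 tags it is 100% and 99.1%.

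The same sequence marked the sites that fell or were not found. A CEBP-ATF core was present in 36.4% of the ATF3-Ctrl peaks without a partner, in 51.2% of those more than 1 kb from any ATF3-CPT peak, and in 54.6% of the shared sites at least 2-fold lower that overlapped no ATF3-KO peak. Over all 559 sites at least 2-fold lower, ATF3-KO overlaps included, the share was 42.8%. It was present in 7.50% of all shared sites and in 1.13% of CPT-only peaks. In these classes the core lay close to the peak centre, at a median of 9.5 bp in shared peaks and 11.5 bp in peaks without a partner. The AP-1 core showed the opposite distribution, with 41.3% of CPT-only peaks, 58.7% of sites at least 2-fold higher, 4.22% of peaks without a partner, 0.716% of the 559 sites at least 2-fold lower and 0.917% of the 436 among them outside the ATF3-KO list. Counted over whole lists, peaks with a CEBP-ATF core numbered 4483 in ATF3-Ctrl (13.3%) and 2465 in ATF3-CPT (3.51%), although the second list was larger. Overlap with the ATF3-KO list was found for 7 of the 4483 (0.156%).

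The 5 shared sites with the lowest ratios, among those with at least 30 tags where they were higher, illustrated this class. The lowest was in an intron of CARD9, an adaptor of antifungal immune signalling, with 69 tags in ATF3-Ctrl and 11 in ATF3-CPT (0.134-fold, exact 95% interval for counting error 0.0637 to 0.254). Next came a site 216 bp upstream of DENND1B (35 and 10 tags, 0.239-fold), one in an intron of ELMO1, a regulator of Rac-dependent cell migration (46 and 14 tags, 0.255-fold), one in HHAT, the Hedgehog acyltransferase (36 and 11 tags, 0.256-fold), and one near the olfactory receptor gene OR5K1 (71 and 22 tags, 0.260-fold). All but the DENND1B site held a CEBP-ATF core. The 5 highest ratios lay near SH3BP4 (8 and 102 tags, 10.7-fold, 5.22 to 25.4), OR10H1 (12 and 133 tags, 9.28-fold), SEC14L1 (28 and 291 tags, 8.71-fold), OR4F3 (9 and 93 tags, 8.66-fold) and ANKRD2 (11 and 112 tags, 8.53-fold), the last of them in an intron of the neighbouring gene UBTD1. The OR4F3 and ANKRD2 sites held an AP-1 core, twin cores in the case of ANKRD2, and the other 3 held none of the cores searched.

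Genes of the integrated stress response, the program by which phosphorylated eIF2α and ATF4 raise amino acid supply and chaperone genes, carried 55 ATF3-Ctrl sites, of which 15 held a CEBP-ATF core (27.3%, against 12.5% over all protein-coding genes). In all, 13 of the 15 were found again after CPT, against 1670 of 3649 over all protein-coding genes, without matching for tags. Of the 13, 10 had a ratio under 1 and 3 above, with a median log2 ratio of −0.37. Over all protein-coding genes 1175 of the 1670 had a ratio under 1, with a median of −0.32. In the ratio, though not in the share found again, this list was thus close to CEBP-ATF sites in general. At CHAC1, whose product degrades glutathione, the single ATF3-Ctrl site had 251 tags in ATF3-Ctrl and 184 in ATF3-CPT (0.614-fold, 0.505 to 0.746). At TRIB3, a pseudokinase that feeds back on ATF4, the site 170 bp downstream of the TSS had 113 and 82 tags (0.608-fold, 0.452 to 0.815) and the upstream one 68 and 48 (0.591-fold, 0.400 to 0.868). At PHGDH, the first enzyme of serine synthesis, the site had 39 and 16 tags (0.344-fold, 0.179 to 0.629). The intervals of these 4 sites, counting both at TRIB3, lay below 1.

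The SLC7A11 promoter, of the cystine importer, had 269 and 248 tags (0.772-fold, 0.647 to 0.921), and the HERPUD1 promoter, of an endoplasmic reticulum degradation factor, had 392 and 386 (0.825-fold, 0.715 to 0.952). For SLC7A5, SESN2, XBP1 and the intronic SLC7A11 site the intervals included 1, with ratios of 0.925, 0.838, 1.16 and 0.747. The sites of HSPA5, the chaperone BiP (309 and 397 tags, 1.08-fold, 0.925 to 1.25), and of STC2 (77 and 119 tags, 1.29-fold, 0.964 to 1.75) held an AP-1 core as well. Sites within EIF2AK3, the kinase PERK (11 tags), and ASNS, asparagine synthetase (13 tags), had no ATF3-CPT peak. The main ASNS promoter site, at the TSS and with none of the cores searched, had 111 and 68 tags (0.513-fold, 0.374 to 0.700).

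**Figure D4:**
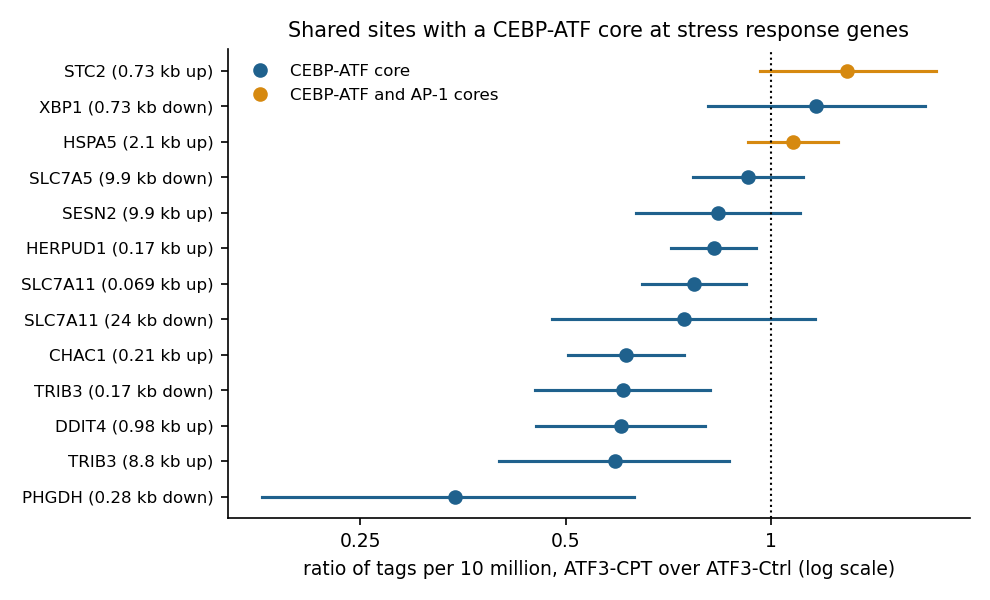
Ratio of tags per 10M, ATF3-CPT over ATF3-Ctrl (x axis, log scale), at the 13 shared sites with a CEBP-ATF core nearest to integrated stress response genes (y axis, with the distance up or downstream of the TSS). Points are single sites with exact 95% intervals for counting error, and orange marks sites that also hold an AP-1 core. The ratios run from 0.344 at PHGDH to 1.29 at STC2.

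Of all protein-coding genes, 656 had both a shared AP-1 site and a shared CEBP-ATF site in separate peaks. In 611 of them all CEBP-ATF ratios were below all AP-1 ratios, and in 455 the former were under 1 and the latter above 1, while 146 had CEBP-ATF ratios above 1 only. Among the listed genes 23 had both, and in 20 all CEBP-ATF ratios were below all AP-1 ratios. CDKN1A did not show this order, with an AP-1 site at 0.931-fold and CEBP-ATF sites at 0.907, 1.21 and 0.885-fold. The next 4 genes, chosen after their values were seen, did. At ATF3 itself the main promoter site, with its CEBP-ATF core, had 406 tags in ATF3-Ctrl and 431 in ATF3-CPT, or 314 and 279 per 10M (0.889-fold, 0.775 to 1.02). The site 6255 bp upstream of the first TSS, with an AP-1 and an ATF/CRE core, had 51 and 226 tags (3.71-fold, 2.73 to 5.13), and the intronic AP-1 site had 23 and 80 (2.91-fold, 1.81 to 4.86). Listed sites at ATF3 numbered 9 and 12. At DDIT4, whose product inhibits mTORC1, the CEBP-ATF site 980 bp upstream had 121 and 87 tags (0.602-fold, 0.452 to 0.800), while the AP-1 site 18325 bp downstream had 92 and 425 (3.87-fold, 3.08 to 4.90). FOSL2, which encodes a FOS-related partner of JUN, had 125 and 85 tags at the CEBP-ATF site 2130 bp upstream (0.570-fold, 0.427 to 0.756) and 21 and 92 at the AP-1 site next to its TSS (3.67-fold, 2.27 to 6.21). CEBPB, a C/EBP factor, had 156 and 142 tags at its CEBP-ATF site (0.762-fold, 0.603 to 0.963) and 13 and 44 at an AP-1 site 93642 bp from its TSS (2.84-fold, 1.50 to 5.74).

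Among the 8 shared CEBP-ATF sites of most ATF3-Ctrl tags, the 2 that also held an AP-1 core had ratios above 1 and the other 6 below. These were STK40 (461 and 695 tags, 1.26-fold, 1.12 to 1.42) and a site near RNF212 (380 and 599, 1.32-fold, 1.16 to 1.51). Ratios below 1 were found at PYCR1, a proline synthesis enzyme (459 and 367 tags, 0.670-fold, 0.582 to 0.770), KLHDC4 (452 and 347, 0.643-fold), a site 9226 bp upstream of the p53 inhibitor gene MDM4 (423 and 355, 0.703-fold), CTBP2 (397 and 389, 0.821-fold), and the ATF3 and HERPUD1 promoters given above. The ATF3-Ctrl findPeaks score, with at most 1 tag per position, was 168 to 206 at these 8 sites. Many of their tags thus shared a position, while the intervals take every tag as independent and may be too narrow. Ratios below 1 were usual for sites of this strength, since 40 of the 196 shared sites with 160 or more ATF3-Ctrl tags were above 1 (20.4%) and their median log2 ratio was −0.51. Among the 127 of them without an ATF3-KO overlap, 36 were above 1 (28.3%) and the median was −0.31.

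CPT-only peaks were numerous and mostly low, with a median of 13 tags and an upper quartile of 18. The share with an AP-1 core rose with their height, from 31.7% at 7 to 9 tags to 59.9% at 40 to 79 tags, and was 51.6% (39.6 to 63.4%) in the 64 peaks with 80 to 159 tags. Of the 43324 on chromosomes 1 to 22, X and Y, 9614 lay in promoters (22.2%, 21.8 to 22.6%), against 31.4% of shared ATF3-CPT peaks. The 5 with most tags were near GALNT9 (193 tags), TUBB8B (171), KRT80 (147), KCNF1 (145) and NSMCE2 (142), and all lay 128 to 606 bp from an ATF3-Ctrl peak, so they were neighbours of listed sites and not isolated ones. Likewise the 5 ATF3-Ctrl peaks of most tags without a partner (TUBB8B 161, DNAJB8 111, LRATD2 96, CWH43 89 and PLEKHG4B 86 tags) lay 142 to 866 bp from an ATF3-CPT peak. The PLEKHG4B peak began at base 10076 of chromosome 5, 82144 bp from the TSS of that gene.

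Beyond 1 kb from any ATF3-Ctrl peak, the highest CPT-only peaks were near OR4F16 (130 tags), in an intron of DST, which encodes the cytolinker dystonin (101), in TAGLN3 (91), near TUBB8B (88) and 34433 bp upstream of NCOA1, a nuclear receptor coactivator (87). The NCOA1 peak was 85876 bp from the nearest ATF3-Ctrl peak and held AP-1 cores in a pair, and the TAGLN3 peak held 1. The highest ATF3-Ctrl peaks with no ATF3-CPT peak within 1 kb were near CWH43 (67 tags) and ADAMTS9 (51), at GABARAPL1, an autophagy gene (36), near ROCK1 (33) and in CMIP (32). The CMIP peak held a CEBP-ATF core. Some of these names only mark the nearest TSS, which was 56970 bp from the OR4F16 peak and 65909 bp from the CWH43 peak. The findPeaks score, with at most 1 tag per position, was 21 at the ADAMTS9 peak of 51 tags. No filter for repeats or regions of unreliable mapping was applied to the named peaks.

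Peaks lay closer together after CPT. Neighbouring peak centres were a median of 26615 bp apart before and 13286 bp apart after the treatment, a ratio of 0.499 (0.485 to 0.514). With the ATF3-CPT list cut to the length of the other, keeping the peaks of most tags, it was 24506 bp and the ratio 0.921, so the list length moved the value by over 1.5 times. CPT-only peaks lay a median of 15144 bp from the nearest ATF3-Ctrl peak, with 12.1% within 1 kb, 40.6% within 10 kb and 90.6% within 100 kb. ATF3-Ctrl peaks without a partner lay nearer to the other list, at a median of 3016 bp, with 27.5% within 500 bp.

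Runs of peaks with gaps of at most 10 kb were more numerous after CPT, though the longest had 31 peaks in both lists. Runs of 5 or more peaks numbered 424 in ATF3-Ctrl and 1860 in ATF3-CPT, and runs of 10 or more 34 and 192. With equal list lengths ATF3-CPT had 504 and 42, and its longest run had 20 peaks. The longest run of the full ATF3-CPT list spanned 143670 bp at DDX60L and PALLD, the latter encoding the actin-associated palladin, where ATF3-Ctrl had 22 peaks. Others were at ARHGAP18 (24 peaks, 11 in ATF3-Ctrl), EPHA2, an ephrin receptor (23, 15), SOCS3, an inhibitor of cytokine signalling (22, 16), and PCDH7, a protocadherin (22, 15).

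By the nearest protein-coding TSS within 100 kb, 11814 of 20136 genes had an ATF3-Ctrl site and 15196 an ATF3-CPT site. Of the 8322 genes without an ATF3-Ctrl site, 3705 gained a first one (44.5%), and of the 11814 with a site, 8284 gained extra ones (70.1%), 2782 kept the number, 425 had fewer and 323 had none left. Of the CPT-only peaks assigned to genes, 79.8% fell to genes gaining extra sites and 17.2% to genes gaining a first one. The share of genes that gained rose with their ATF3-Ctrl sites, from 61.7% at 1 site to 98.1% at 10 or more. Such a count follows the length of the region nearest to a gene, and with equal list lengths 1202 genes gained a first site and 2898 extra ones, while 4416 had fewer or none.

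First sites were few per gene and low. The genes gaining one had 6514 ATF3-CPT sites, of which 6429 were CPT-only. The rest overlapped an ATF3-Ctrl peak that was not assigned to the same gene. Of the 3705 genes, 2077 had a single ATF3-CPT site (56.1%), and the median sum was 12.9 tags per 10M, against 71.2 in genes gaining extra sites. The 8 first-site genes of most tags were VCAN, the matrix proteoglycan versican (11 sites, 105 tags per 10M), CRYBG2 (8 sites, 104), TMEM266 (8, 96.4), the kinase gene WNK1 (11, 95.7), MYO3B (7, 95.1), EVI5 (7, 95.1), AHCYL2 (11, 93.8) and FYB1 (7, 90.6). Most extra sites were gained by DST (16 and 59 sites), PSD3 (12 and 39), PCDH7 (24 and 50), GSE1 (27 and 52), SLC39A11, a zinc transporter gene (16 and 40), PARD3, a polarity gene (18 and 42), NSMCE2 (31 and 54) and ZBTB20 (23 and 46). At DST the summed signal went from 239 to 1041 tags per 10M. The losses were small by comparison, led by DEFB115 (8 and 3 sites), ZNF716 (4 and 0), ASB1 (6 and 3), TRIM48 (3 and 0) and PKHD1L1 (4 and 1).

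Groups of genes related to ATF3 and to CPT were then read against these backgrounds of 44.5% and 70.1%. For extra sites they were also read against the share of gaining genes among all genes with as many ATF3-Ctrl sites. Among AP-1 family genes, 8 of the 12 with an ATF3-Ctrl site gained extra sites (66.7%, against 74.9% of genes with as many sites). First ones were gained by 2 of 4, and the median log2 ratio at the 30 shared sites of this list was 1.19 (0.74 to 1.63). That interval includes the 0.86 of all genes. The JUN promoter had 40 and 153 tags (3.20-fold, 2.25 to 4.66), and the site 2757 bp from the TSS of FOSL1 had 22 and 134 (5.10-fold, 3.23 to 8.41). BATF3 went from 0 to 7 sites. In the ATF, CREB and CEBP family 12 of 13 gained extra sites (92.3%, against 77.2% of genes with as many sites), and ATF2, ATF4 and ATF5 gained first ones (3 of 6). CREB5 went from 11 to 27 sites.

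Immediate early and MAPK feedback genes gained extra sites in 22 of 24 cases (91.7%), with 133 and 252 sites in all. These genes had a mean of 5.54 ATF3-Ctrl sites, and 79.7% of genes with as many sites gained. Among them were DUSP5, a phosphatase acting on ERK (18 and 27 sites), SPRY4, an inhibitor of receptor signalling (7 and 17), IER5 (7 and 18) and the EGFR ligand gene TGFA (8 and 20). Cytoskeleton, adhesion and laminin genes gained in 24 of 25 cases (96.0%, against 82.3% of genes with as many ATF3-Ctrl sites). They had 137 and 257 sites, and a median log2 ratio of 1.19 (1.07 to 1.33) at 117 shared sites, against 0.86 over all genes. An AP-1 core was in 41.6% of their ATF3-Ctrl sites, against 30.5% over all protein-coding genes. CD44, the hyaluronan receptor, went from 12 to 22 sites, VCL, vinculin, from 3 to 14, and LAMA3, a laminin chain, from 7 to 14. All 56 shared AP-1 sites of this list had a ratio above 1, as had 8398 of 8676 over all genes. Epithelial and colon genes gained in 14 of 18 cases (77.8%, against 78.6% of genes with as many sites) and genes of other tissues in 9 of 13 (69.2%, against 71.1%).

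For p53 target genes the count was 20 of 26 (76.9%, against 73.9% of genes with as many ATF3-Ctrl sites). The median log2 ratio was 0.59 (0.29 to 0.89) at 71 shared sites, an interval that includes the 0.86 of all genes. BBC3, which encodes the apoptosis activator PUMA, had 78 and 379 tags at a site 8429 bp from its TSS (4.07-fold, 3.18 to 5.26). CDKN1A, the cell cycle inhibitor p21, had 247 and 261 tags at its CEBP-ATF site 9211 bp away (0.885-fold, 0.741 to 1.06). Of the 14 ATF3-Ctrl sites of this list with a CEBP-ATF core, 9 were found again after CPT, 5 with a ratio above 1 and 4 below. Over all protein-coding genes 1670 of 3649 such sites were found again, 495 with a ratio above 1 and 1175 below. Topoisomerase and DNA damage signalling genes gained extra sites in 15 of 22 cases (68.2%, against 65.7% of genes with as many sites). Their median log2 ratio was 0.29 (0.05 to 1.19) at 27 shared sites, and this interval also includes 0.86. TOP1, which encodes the target of CPT, went from 3 to 9 sites, and CHEK2, a checkpoint kinase gene, had 8 and 58 tags at its AP-1 promoter site (6.07-fold, 2.89 to 14.7). The single BRCA1 site, 164 bp upstream of a TSS and with a CEBP-ATF core, had 95 and 44 tags (0.388-fold, 0.265 to 0.560).

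Integrated stress response genes gained extra sites in 17 of 20 cases (85.0%, against 72.2% of genes with as many ATF3-Ctrl sites). The median log2 ratio at their 46 shared sites was 0.32 (−0.12 to 1.07), an interval that includes the 0.86 of all genes. Their 17 shared AP-1 sites had a median of 1.26, among them the PPP1R15A site at 9 and 53 tags (4.93-fold, 2.41 to 11.4) and an EIF2AK3 site at 141 and 411 (2.44-fold, 2.01 to 2.98). Among housekeeping genes, 11 of 23 cytoplasmic ribosomal protein genes gained extra sites (47.8%, against 67.2% of genes with as many sites). For proteasome genes it was 13 of 22 (59.1%, against 65.8%). A first site was gained by 2 of 4 and 8 of 8, against 44.5% over all genes. The site of PSMA2, counted among the latter, overlapped an ATF3-Ctrl peak that was not assigned to this gene. The plot of sites per gene shows that all 11 lists had more ATF3-CPT than ATF3-Ctrl sites.

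**Figure D5:**
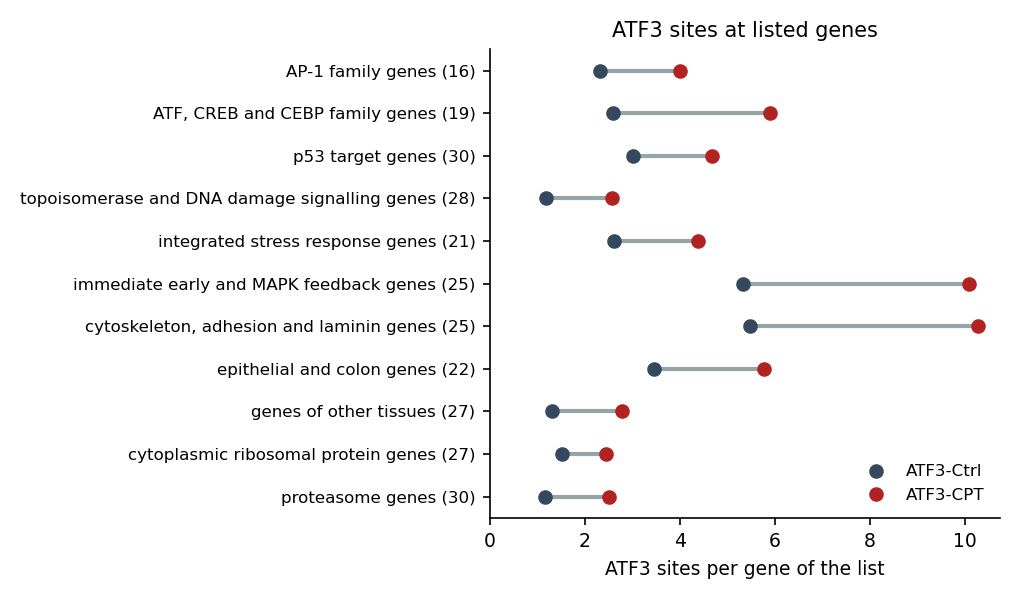
ATF3 sites per gene (x axis), from the nearest TSS within 100 kb, in 11 gene lists (y axis, number of genes in parentheses), with dark points for ATF3-Ctrl and red points for ATF3-CPT. The red point lies to the right in every list, for example 137 and 257 sites in the 25 cytoskeleton, adhesion and laminin genes and 41 and 66 in the 27 ribosomal protein genes.

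The ratio differed between sites that were also listed in other libraries and the rest. Shared sites that overlapped an ATF3-KO peak had a median log2 ratio of 0.08 (0.06 to 0.12; 1654 sites), against 0.90 (0.88 to 0.91) without such an overlap. The 553 shared sites that overlapped a p53-CPT peak had 0.21 (0.07 to 0.33). They were a mixture of 211 that were also in the ATF3-KO list, at −0.84, and 342 that were not, at 0.95 (0.81 to 1.08). Unplaced sequences and the mitochondrial genome held 198 shared sites with a median of −0.86. Their part in the median over all sequences was small, since chromosomes 1 to 22, X and Y alone gave 0.85. Their part in the count of lower sites was larger, with 83 of the 642 sites at least 2-fold lower.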

How the data were processed

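ATF3 ChIP-seq libraries of HCT116 cells were compared, 1 library per condition. The authors aligned reads to hg19 with BWA 0.6.1 and called peaks with HOMER 4.1 (the submitters' processing notes), per library, and per the file headers at a false discovery rate of 0.001 and 4-fold over the local 10000 bp. The deposited lists give each peak a signal, its tags normalized by the authors to 10000000 tags of the library (10M). They also give the findPeaks score, a deposited count of tags with at most 1 per position, used in an alternative only. The caller's fold and p columns were not used. The signal was multiplied by total tags / 10000000, which gave whole tags in 100% of the peaks, within the rounding of the signal (0.0647 tags for ATF3-Ctrl and 0.0773 for ATF3-CPT).

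Peaks with at least 1 bp in common were shared, and an ATF3-Ctrl peak was paired with the overlapping ATF3-CPT peak of most tags. Depth was 12947516 and 15457013 tags. TSS were all transcript starts of protein-coding genes of GENCODE release 44 on GRCh37. Cores were searched on both strands in hg19 sequence. The CEBP-ATF core, the TEAD, GATA and GC box sequences searched in addition, and the sites beyond 1 kb, at genes with both cores or of most tags with a CEBP-ATF core were chosen after the lists were seen. Named otherwise were the 5 CPT-only peaks and 5 unpaired ATF3-Ctrl peaks of most tags, the 5 highest and lowest ratios with at least 30 tags, all without ATF3-KO overlap and within 100 kb of a TSS, 8 genes gaining most sites, 8 with first sites of most tags, 5 losing most, and genes of fixed lists by tags or known role. Members and lists were chosen with earlier results of these data known. Intervals are Wilson, order-statistic or exact conditional binomial at 95%, and cover counting error or sites only. The exact intervals take every tag as independent, including tags at the same position. Scripts ran in Python 3.11.15 with pandas 2.3.3 and scipy 1.17.1 and were tested on simulated data.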

Additional observations from a re-analysis of the deposited data

How the results depend on the processing

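The medians, the difference and the spacing ratio kept their direction under the alternatives run, but the balance of genes did not: with equal list lengths 2898 genes gained extra sites and 4416 had fewer or none, against 8284 and 748. Neighbours within 500 bp also turned, from 4.29% in ATF3-Ctrl and 5.25% in ATF3-CPT to 4.07% in the shortened ATF3-CPT list. No paired analysis was possible because each condition is 1 library and no test was run. The share of ATF3-Ctrl peaks with a partner was 87.1% with centres within 1 kb, 75.4% with at least 60 bp in common, 83.0% with a minimum of 10 tags per 10M in both lists, 63.9% with equal list lengths and 79.1% without ATF3-KO peaks. Scaling by tags outside peaks added 0.11 to every log2 ratio, and setting the median of ATF3-KO sites to a ratio of 1 changed them by −0.08. With these 2 scalings, the findPeaks score, removal of ATF3-KO peaks and at least 20 ATF3-Ctrl tags, in that order, the median log2 ratio was 0.96, 0.76, 0.74, 0.90 and 0.72. With at least 20 tags, 3512 of 9030 sites were at least 2-fold higher (38.9%) and 514 at least 2-fold lower (5.69%), against 43.6% and 2.37% in the main analysis. The promoter minus distal difference, −0.46 in the main analysis, was −0.52 with promoters of 1 kb, −0.41 with TSS of all gene types, −0.41 without ATF3-KO peaks, −0.40 by score and, in an alternative added after the data were seen, −0.56 with the start of the gene record as TSS. The spacing ratio was 0.921 with equal list lengths and 0.482 without ATF3-KO peaks. In an alternative added after the data were seen, equal list lengths left 504 ATF3-CPT runs of 5 or more peaks and 42 of 10 or more. Genes gaining a first site fell to 1202 with equal list lengths, and genes gaining extra sites were 5270 with a TSS within 10 kb and 4709 with the minimum of 10 tags per 10M. The results on CEBP-ATF and AP-1 cores and their alternatives were chosen after seeing the data. For peaks with any CEBP-ATF core they gave a share with a partner (45.0% in the main analysis) of 50.6% with centres within 1 kb, 47.4% with the tag minimum and 91.9% with at least 20 ATF3-Ctrl tags. Their median log2 ratio, −0.33, was −0.21 by tags outside peaks, −0.41 by ATF3-KO sites and −0.41 with at least 20 tags. For AP-1 sites (1.27) it was 1.39 and 1.19 by the 2 scalings, 1.12 by score and 1.19 with at least 20 tags. The other 26 alternatives, the count of 514 lower sites among them, stayed within the main interval or within 1.5 times the main count. Depth limits single sites: at the lowest listed peaks, 7 tags decide a ratio.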

Other observations

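Other short sequences were counted in the same peaks, with windows of equal length 1 kb to the side for reference, and are given as values. The GC box (GGGCGG or its complement), a promoter element bound by SP factors, was in 34.4% of shared promoter peaks and 25.6% of CPT-only promoter peaks, with 8.94% and 9.45% to the side. At distal sites the shares were 5.68% and 4.66%, with 2.53% and 2.33% to the side. The TEAD core (GGAATG), read by the TEAD factors of the Hippo pathway that often share enhancers with AP-1, was in 15.7% of shared sites at least 2-fold higher, 11.3% of those within 2-fold and 12.4% of CPT-only peaks, with 6.79%, 7.24% and 6.82% to the side. It was also in 23.3% of shared sites at least 2-fold lower, with 17.2% to the side, or 16.1% and 10.6% without ATF3-KO overlaps. The GATA core (AGATAA) was below its side windows, with 3.94% of shared peaks and 7.32% to the side.

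Base composition differed between the classes. The median GC content was 63.0% in shared promoter peaks and 58.4% in CPT-only promoter peaks, and 48.8% and 47.2% at distal positions.

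Of the 8 longest ATF3-CPT runs, 2 had fewer tags than ATF3-Ctrl, both beside a centromere. A run of 20 ATF3-CPT peaks near ZNF33B had 3089 tags per 10M, where 19 ATF3-Ctrl peaks had 5532, and a run of 19 near POTEA had 410, where 16 had 853. Of the 559 shared sites at least 2-fold lower on chromosomes 1 to 22, X and Y, 123 overlapped an ATF3-KO peak, against 171 of 11790 at least 2-fold higher.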
